A study of Sus scrofa with 81 samples.

Results

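The genes described are those for the proteins of the mitochondrial ribosome in pig skeletal muscle. They are 76 of the 28061 genes in the deposited expression table, chosen by name: every official symbol made of MRPL or MRPS, a number and at most one letter A, B or C, each gene entered once. By symbol, 48 belong to the large subunit (MRPL) and 28 to the small subunit (MRPS). No measured value entered this rule, although earlier results of these data were known when it was set. MRPS36 keeps a ribosomal symbol although its protein is now placed elsewhere, and MRPS12, which has no official symbol in the table, lies outside the rule.

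RNA was sequenced from pig skeletal muscle, breed Landrance as the labels spell it, at 27 stages with 3 libraries each, 81 libraries in all. The 12 postnatal stages, read here from D as days after birth, were D0, D9, D20, D30, D40, D60, D80, D100, D120, D140, D160 and D180 (36 libraries). The 15 prenatal stages, read from E as days of gestation, were E33, then every 5 days from E40 to E105 (45 libraries). The animals carried no stated treatment or genetic change, and the labels used here name neither the muscle, the sex, the litter nor a batch, nor tie each library to an animal of its own, so p-values measure the spread between libraries, which may be technical.

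The mitochondrial ribosome, or mitoribosome, translates the few messenger RNAs that the mitochondrial genome encodes, all of them for core subunits of the respiratory chain and the ATP synthase. Its RNAs are made inside the organelle, while every one of its proteins is encoded in the nucleus, made on cytosolic ribosomes and imported. The proteins fall into those with a counterpart in bacterial ribosomes and those particular to mitochondria, and skeletal muscle is known for a large rise in mitochondrial content as fibres mature.

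Values are FPKM, fragments per kilobase of transcript scaled to the mapped fragments of a library, which are shares of a library and carry no absolute depth. Steps between low values gave a relative depth for 79 of the 81 libraries, between 0.683 and 1.42 of the median library. The median log2 fold change of all 14220 genes tested was -0.55 for postnatal over prenatal stages. A second scaling by median ratios, which brings that median close to 0, is therefore given beside the deposited scale. The label of the tissue was checked against 8 muscle markers, of which 7 were found and MB was not matched. Their summed level was 51485 ± 13213 FPKM in postnatal libraries (SD, n = 36) and 15228 ± 7398 FPKM in prenatal libraries (SD, n = 45). In bulk tissue, fewer cells of a type and less RNA per cell cannot be told apart.

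All 76 genes were detected. Each had at least 1 FPKM in at least 3 libraries, the filter for testing. Averaged over stages the levels per transcript length ran from 0.955 to 79.0 FPKM, with a median of 16 FPKM and quartiles at 10.6 and 28 FPKM. The most abundant were MRPL12 (79.0 FPKM), a stalk protein of the large subunit, MRPL17 (74.1 FPKM), MRPL51 (67.0 FPKM), MRPL33 (66.2 FPKM) and MRPS26 (53.1 FPKM). The least abundant were MRPL53 (0.955 FPKM, listed at 0 in 3 libraries and at or above 1 FPKM in 24), MRPS30 (1.49 FPKM), MRPL1 (2.97 FPKM), MRPS25 (3.92 FPKM) and MRPL32 (4.30 FPKM). Parts of one particle thus stood at levels per length that differed widely from gene to gene, and each gene's own highest stage was a median of 2.52 times its lowest. That ratio ran from 1.69 for MRPS21 to 13.8 for MRPL53. All 76 genes differed between stages in limma's F test, at an adjusted p under 0.05, as did 99.3% of all genes tested, so this count says nothing particular about them.

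On the deposited scale the summed level of the 76 genes varied little through most of gestation. It stood at its highest on the day of birth, and was lower again by day 9. The sum was 1585 ± 90.5 FPKM at E33, 1424 FPKM at E90, 2012 ± 16 FPKM at E105, 2655 ± 165 FPKM at D0, 1715 ± 30.2 FPKM at D9, 1368 ± 79.7 FPKM at D80 and 1654 ± 157 FPKM at D180 (SD, n = 3 each). Over all stages it was 1698 ± 343 FPKM in postnatal libraries (SD, n = 36) and 1586 ± 175 FPKM in prenatal libraries (SD, n = 45). After median-ratio scaling the sums were less even within gestation, at 1053 at E33, 1456 at E85, 1127 at E90 and 1704 at E105. They were 2778 ± 110 at D0, 2199 at D9, 2636 ± 310 at D60, 2537 ± 228 at D120 and 2424 ± 504 at D180 (SD, n = 3 each). On that scale the postnatal mean was 2322 and the prenatal mean 1235. The highest mean was thus at D0 on both scales, but after median-ratio scaling D0 lay within 1 SD of D60 and D180 and little more than 1 SD above D120.

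**Figure D1:**
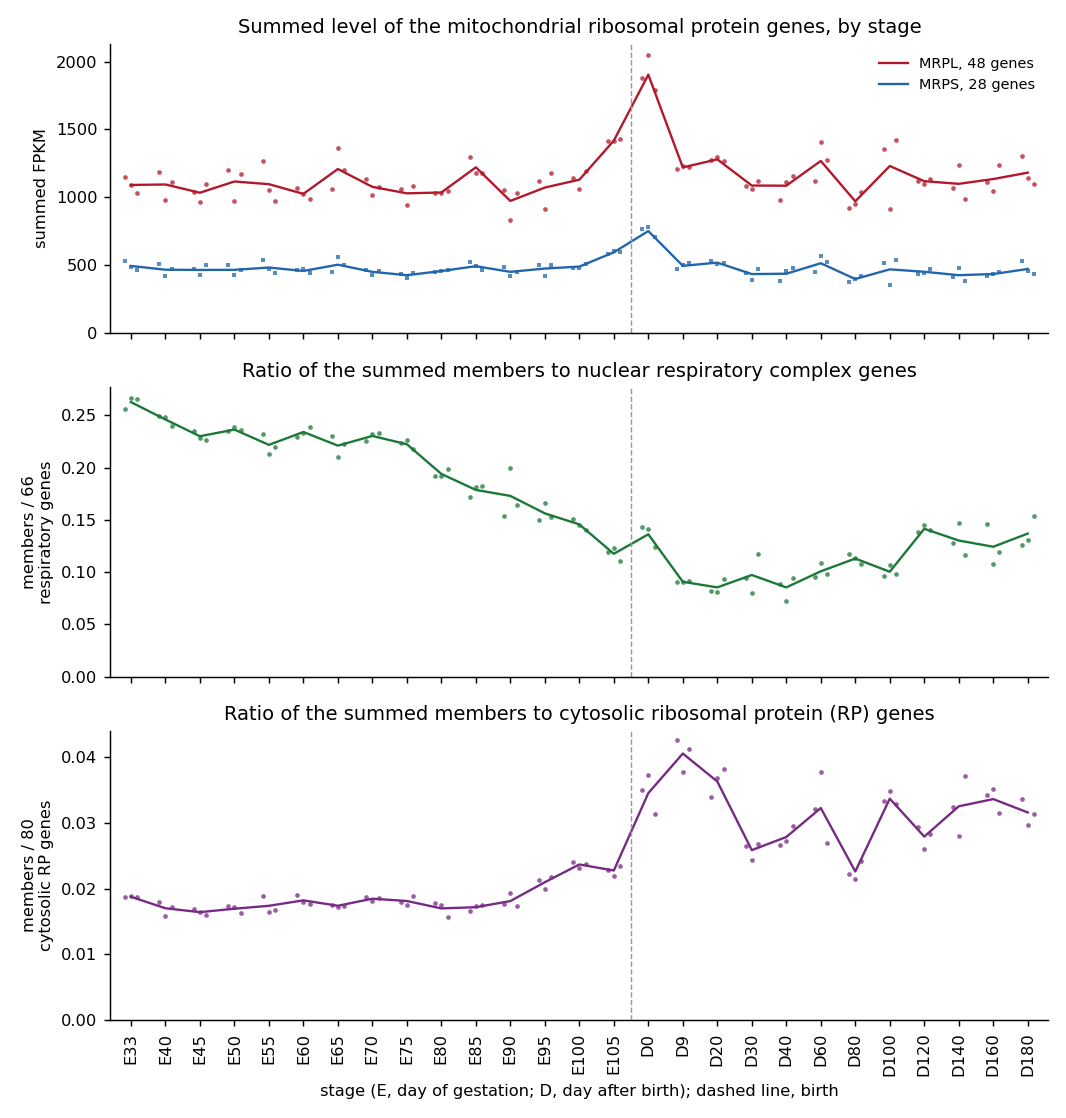
Top, summed FPKM of the MRPL and MRPS genes in each of the 81 libraries (points) with the mean of each stage (line). Middle and bottom, the sum of all 76 genes divided by the sum of 66 nuclear respiratory complex genes and by the sum of 80 cytosolic ribosomal protein genes, which do not depend on scaling. D0 is highest in the top panel, with a summed level of 2655 FPKM. The middle ratio is highest at E33 (0.263) and lowest at D40 (0.0853), without a steady fall between them. It is 0.118 at E105, 0.136 at D0 and, after D40, 0.141 at D120.

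The maximum was shared by most of the genes. The highest stage mean fell at D0 in 54 of 76 members (71.1%), against 10.5% of all genes tested. Left out one at a time, the libraries of D0 gave 50 to 56. With median-ratio scaling it was 36 of 76 against 12.8% of all genes, and with quantile normalisation 34 of 76 against 13.2%. Of the 22 others on the deposited scale, MRPL4, MRPL49, MRPL52, MRPS30 and MRPS6 were highest at E33, and MRPL12, MRPL23 and MRPS26 at E105. MRPL34, MRPL51 and MRPL57 were highest at D100, and the remaining 11 had their highest stage scattered from E50 to D180.

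**Figure D2:**
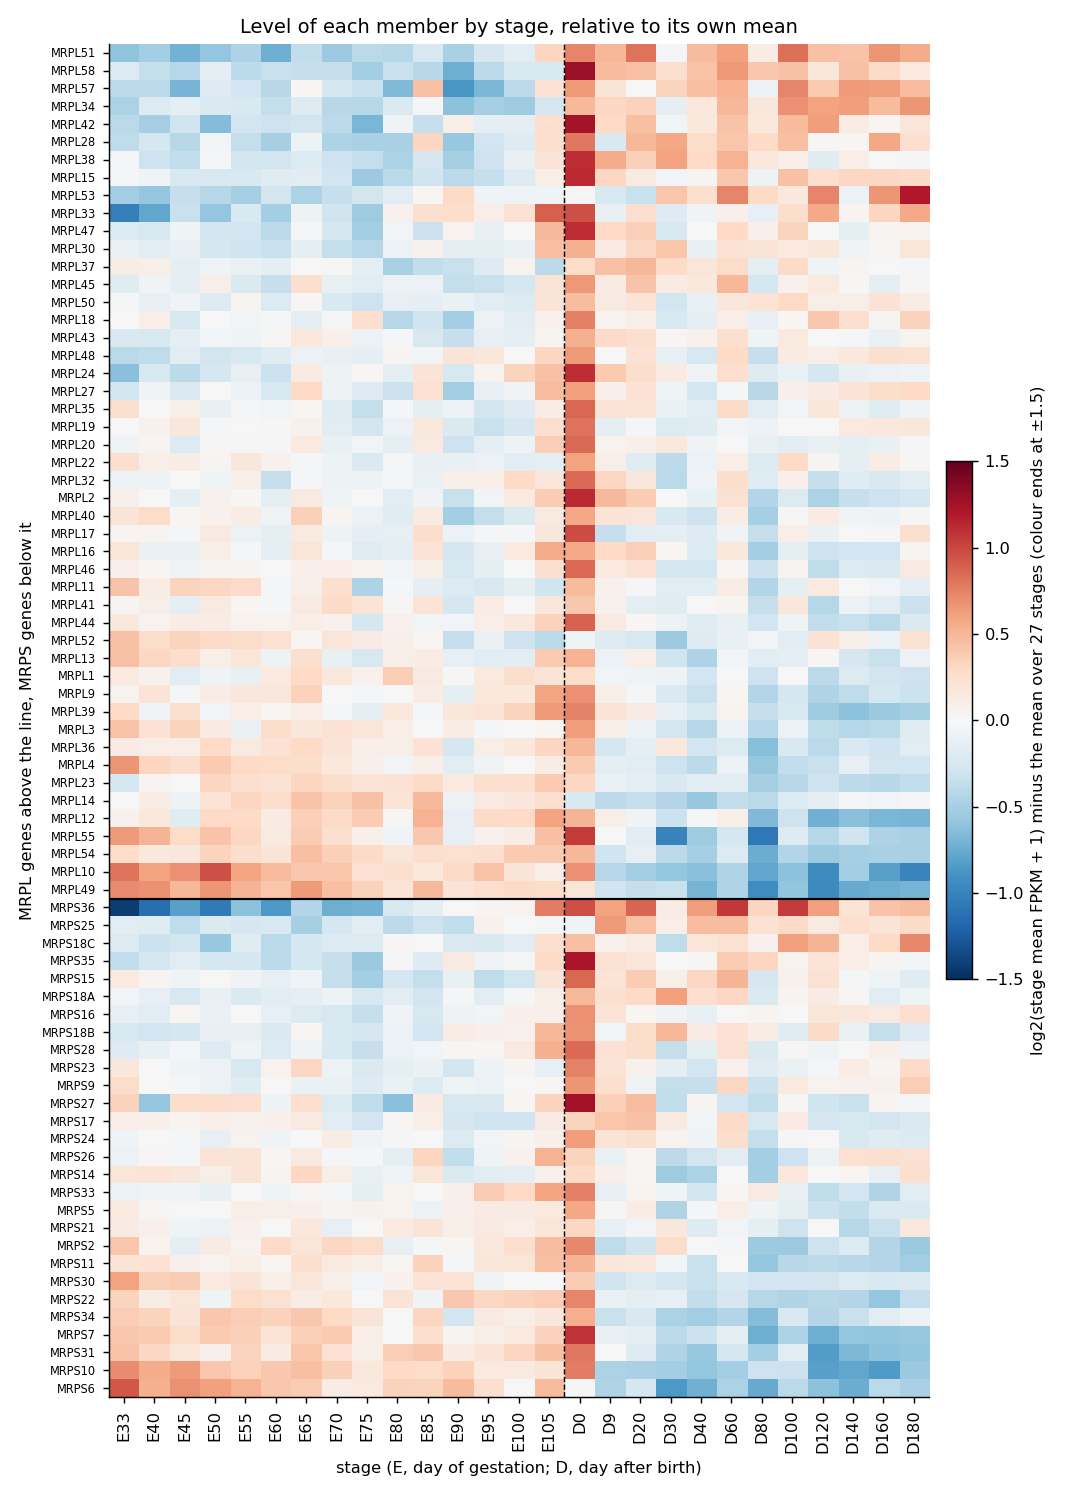
Mean level of each gene at each stage, as log2(FPKM + 1) minus its own mean over the 27 stages, with MRPL genes above the line, MRPS genes below it and each block ordered by the postnatal over prenatal fold change. The column of D0 is the darkest red for most genes, 54 of 76 having their highest stage mean there.

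At D0 against E105, limma called 2 members higher and 0 lower, at an adjusted p under 0.05 together with at least a 2-fold change, where 2.78% and 9.38% of all genes were called. By adjusted p alone 41 members were higher and 2 lower, where 14.1% of all genes were higher and 39.2% lower. More members than that share of all genes were thus higher, and fewer lower. The median log2 fold change of the members was 0.39, against -0.20 over all genes, and 74 of 76 members lay above that of all genes. In 41 members every D0 library lay above every E105 library, against 13.4% of all genes, and in 2 members every D0 library lay below, against 39.8%. With median-ratio scaling 13 members were called higher and 0 lower, where 5.28% and 5.75% of all genes were called.

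MRPL58 (gene ID 100512432), a peptidyl-tRNA hydrolase that rescues stalled mitoribosomes and is itself built into the large subunit, had 30.1, 39.5 and 30.8 FPKM in the D0 libraries, against 11.4, 11.1 and 10.4 FPKM in the E105 libraries. The groups did not overlap, and the log2 fold change was 1.52 ± 0.13 (SE, adjusted p = 2.7e-15). MRPL15 (gene ID 100155047), a large-subunit protein with a bacterial counterpart, had 48.6, 48.8 and 36.8 FPKM at D0, against 22.6, 19.2 and 22 FPKM at E105. Its log2 fold change was 1.03 ± 0.11 (SE, adjusted p = 1e-11). Without the first D0 library 1 member was called, and without the third 4 were, MRPS27 and MRPL38 added. The call on MRPL15 ended at a log2 fold change of 0.96 without the second E105 library, 0.97 without the first D0 library and 0.96 without the second D0 library.

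Next in size were MRPL42, at 66.1 ± 13.02 FPKM in D0 libraries and 32.5 ± 2.62 FPKM in E105 libraries, and the small-subunit protein MRPS35, at 23.6 ± 5.28 FPKM at D0 and 11.9 ± 0.648 FPKM at E105 (SD, n = 3 each). Their log2 fold changes were 0.99 and 0.91, past the adjusted p but short of a 2-fold change, as were 0.91 for MRPS27 and 0.89 for MRPL38. MRPL42 was called at 1.04 without the second E105 library and at 1.16 without the second D0 library, MRPS35 at 1.10 without the second D0 library, MRPS27 at 1.17 and 1.01 without the first or the second E105 library and at 1.31 without the third D0 library, and MRPL38 at 1.08 without the third D0 library. MRPS27 varied widely, with 35.6, 39.8 and 15.9 FPKM in the D0 libraries and 21.4, 17 and 8.45 FPKM in the E105 libraries, which overlapped. At the other end only MRPS6 and MRPL14 passed the adjusted p as lower, with log2 fold changes of -0.51 and -0.48. MRPL14 had 9.59, 12.8 and 10 FPKM at D0, against 15.2, 16.4 and 14.6 FPKM at E105. Median-ratio scaling left MRPS6 at -0.22 and MRPL14 at -0.20, no longer past the adjusted p. MRPS26, MRPL12, MRPL49 and MRPL23 lay between -0.20 and -0.09 and at 0.10 to 0.18 after median-ratio scaling, and none of the 4 passed the adjusted p on either scale.

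**Figure D3:**
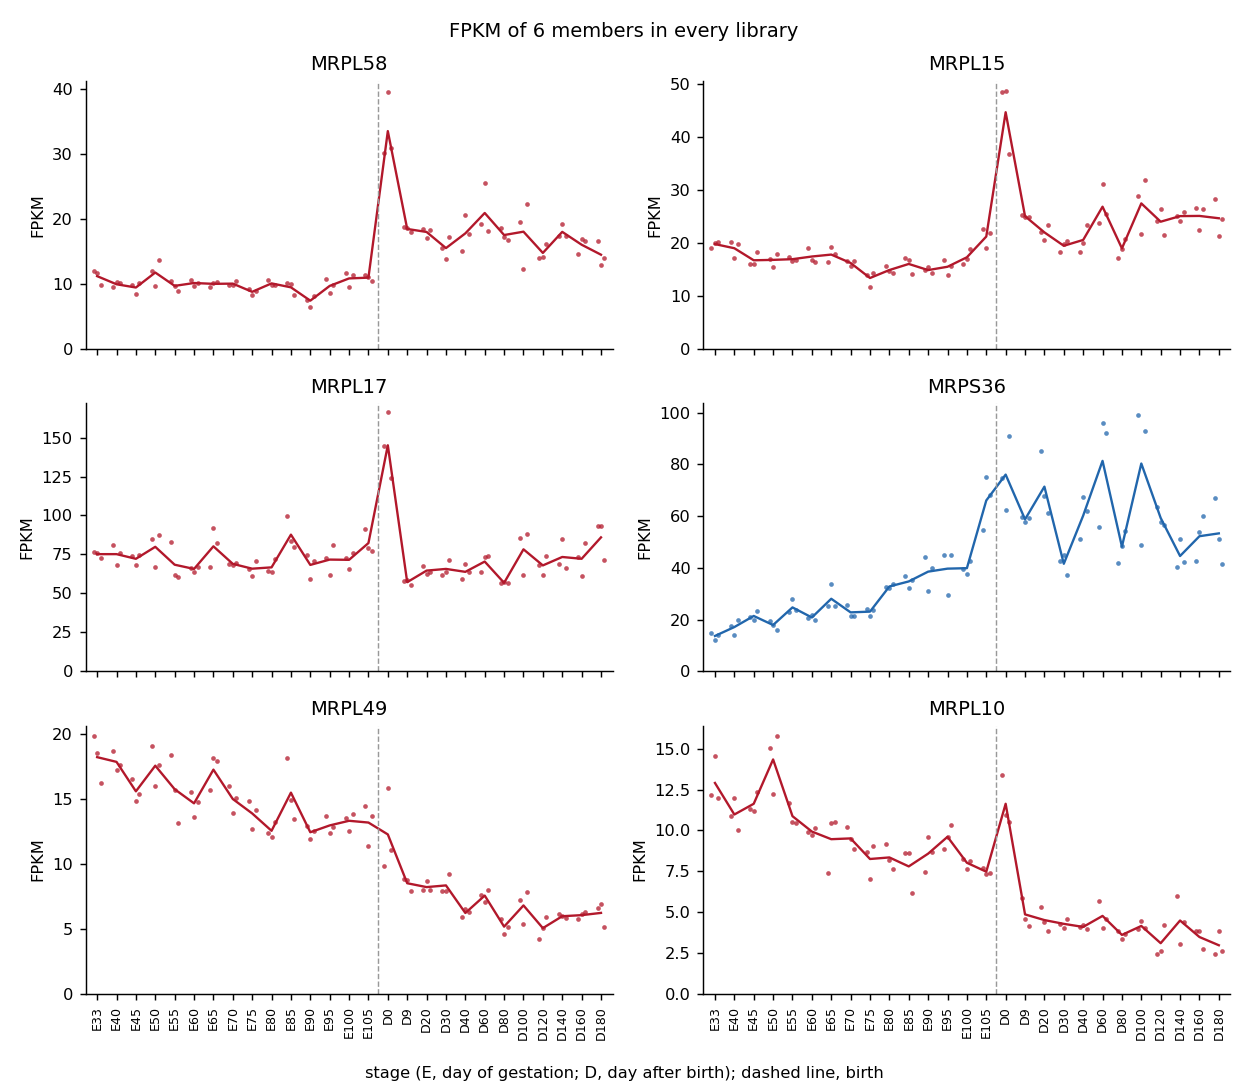
FPKM of 6 members in each library (points) with the mean of each stage (line). MRPL58, MRPL15 and MRPL17 stand highest at D0, MRPS36 climbs through gestation from 13.6 FPKM at E33 to 66.02 FPKM at E105, and MRPL49 and MRPL10 average 7.18 and 4.65 FPKM after birth, against 15.03 and 9.85 FPKM before it, with D0 above the other postnatal stages.

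Both subunits and both origins shared the change. At D0 against E105 the median log2 fold change was 0.46 in the 48 large-subunit genes and 0.34 in the 28 small-subunit genes. It was 0.49 in the 44 members with a bacterial counterpart and 0.37 in the 31 particular to mitochondria; MRPS36 was counted with neither. Summed levels were 1903 ± 130 FPKM at D0 and 1418 ± 9.42 FPKM at E105 for the large subunit, and 751 ± 40.04 FPKM at D0 and 595 ± 10.7 FPKM at E105 for the small subunit (SD, n = 3 each). Neither the difference between subunits nor that between origins was tested.

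Around the mitoribosome, 5 mitoribosomal proteins that carry other names (DAP3, AURKAIP1, CHCHD1, PTCD3 and GADD45GIP1) had a median of 0.41, with 3 of 5 higher by adjusted p. Of 16 mitochondrial translation factors 2 were called higher. TUFM, which brings aminoacyl-tRNA to the ribosome, had 72.3 ± 14.4 FPKM at D0 and 34.4 ± 4.58 FPKM at E105 (SD, n = 3 each; log2 fold change 1.04). TSFM, which recharges TUFM, had 16.5 ± 22.8 FPKM at D0, a spread wider than its mean, and 1.29 ± 0.124 FPKM at E105. None of 25 mitoribosome assembly factors was called, and 6 were higher and 3 lower by adjusted p alone. Of 17 genes of mitochondrial DNA maintenance, transcription and biogenesis, the nuclear receptor ESRRA was called higher (95.2 ± 36.1 FPKM at D0 and 44.8 ± 3.72 FPKM at E105) and the coactivator PPARGC1B lower (1.97 ± 0.694 FPKM at D0 and 5.52 ± 1.01 FPKM at E105; SD, n = 3 each), the call on PPARGC1B ending at -0.91 with median-ratio scaling. Of 66 nuclear respiratory complex genes none was called and 17 were higher and 4 lower by adjusted p alone, with a median of 0.16. Of 78 cytosolic ribosomal protein genes tested, none was called either, 4 were higher and 28 lower by adjusted p alone, and the median was -0.20, equal to that of all genes.

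Markers of other cells moved across the same step. Of 6 leukocyte markers 4 were called lower at D0, and their summed level was 9.32 to 17.7 FPKM in D0 libraries and 47.9 to 56.4 FPKM in E105 libraries, with CD3E at or near 0 in both. Of 5 endothelial markers 4 were called lower, with sums of 52.7 to 59.95 FPKM at D0 and 156 to 177 FPKM at E105. Of 4 erythroid markers found 3 were called lower, with sums of 312 to 378 FPKM at D0 and 2351 to 3408 FPKM at E105, of which HBB averaged 340 FPKM at D0 and 2881 FPKM at E105. The 7 muscle markers summed to 15664 to 25480 FPKM at D0 and 26821 to 32430 FPKM at E105, with none called. Cartilage and bone markers had a higher mean sum at D0, 15.4 ± 21.5 FPKM, against 4.42 ± 2.26 FPKM at E105. So did tendon markers, at 95.2 ± 117 FPKM at D0 and 53.3 ± 23.8 FPKM at E105. In both lists the spread at D0 was wider than the mean. Adipocyte markers summed to 100 ± 13.3 FPKM at D0 and 150 ± 14.2 FPKM at E105 (SD, n = 3 each). The part of these cell types in the members' change was not tested.

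By D9 the genes were lower again. At D9 against D0, 7 members were called lower and 0 higher, where 5.44% and 4.99% of all genes were called. Counted by adjusted p alone, 60 members were lower and 1 higher, where 36.4% of all genes were lower and 15.5% higher. The median log2 fold change was -0.54 in the members and -0.17 over all genes. In 58 of 76 members every D9 library lay below every D0 library, against 35.9% of all genes. Median-ratio scaling left 1 call, MRPL17, where 2.62% of all genes were called lower, 7.6% higher and 10.2% in either direction, and a median of -0.26, with 32 members lower by adjusted p alone, where 22.4% of all genes were lower and 24.5% higher.

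MRPL17 (gene ID 100512482), of the large subunit, had 57.9, 58.4 and 55.2 FPKM in D9 libraries, against 145, 166 and 124 FPKM in D0 libraries. The groups were wide apart, and the log2 fold change was -1.32 ± 0.13 (SE, adjusted p = 8.1e-13). The other 6 called were the small-subunit proteins MRPS10 (-1.23), MRPS7 (-1.19) and MRPS2 (-1.08) and the large-subunit proteins MRPL10 (-1.11), MRPL33 (-1.07) and MRPL55 (-1.04). All 7 belong to the 44 members with a bacterial counterpart, and in that group 37 were lower by adjusted p alone, against 23 of the 31 particular to mitochondria. The difference between origins was not tested, and with median-ratio scaling only MRPL17 stayed called. The call on MRPS2 ended at -0.91 without the first D0 library, that on MRPL55 at -0.92 without the second and that on MRPL33 at -0.92 without the third. MRPS25 went the other way, with 6.33, 6.65 and 6.49 FPKM at D9 and 3.90, 3.46 and 3.44 FPKM at D0 (log2 fold change 0.71 ± 0.12 (SE), adjusted p = 1.6e-06).

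Translation and assembly factors were lower at D9 too. LRPPRC, which stabilises mitochondrial messenger RNAs, had 34.6 ± 1.09 FPKM at D9 and 92.4 ± 18.8 FPKM at D0, and TUFM 34.6 ± 0.945 FPKM at D9 and 72.3 ± 14.4 FPKM at D0 (SD, n = 3 each). Both were called, with log2 fold changes of -1.37 and -1.02, as were the assembly factors TRUB2 (-1.46) and RCC1L (-1.19). In all, 11 of 16 translation factors and 21 of 25 assembly factors were lower by adjusted p alone. Of 66 respiratory genes 1 was called lower and 19 were lower by adjusted p alone, with 4 higher and a median of -0.18, close to that of all genes. Of 78 cytosolic ribosomal protein genes tested, 20 were called lower and 1 higher, with a median of -0.88. The 7 muscle markers summed to 49711 to 53229 FPKM at D9 and 15664 to 25480 FPKM at D0, and 4 were called higher. The 6 leukocyte markers summed to 73.4 to 114 FPKM at D9 and 9.32 to 17.7 FPKM at D0, with 4 called higher. The 4 erythroid markers summed to 1511 to 2231 FPKM at D9 and 312 to 378 FPKM at D0, with 3 called higher, and the 5 endothelial markers to 90.8 to 104.99 FPKM at D9 and 52.7 to 59.95 FPKM at D0, with 1 called higher. Of 5 adipocyte markers tested 2 were called higher, and of 5 cartilage and bone markers 1 lower. The part of these cell types was not tested.

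Set against E105 directly, D9 showed how far the result depends on scaling. On the deposited scale 1 member, MRPL33, was called lower and 0 higher, where 7.09% and 2.14% of all genes were called and 9.23% in either direction. By adjusted p alone 6 members were higher and 28 lower, where 6.34% of all genes were higher and 54.9% lower, and the median log2 fold change was -0.18, against -0.38 over all genes. MRPL33 had 54.2, 63.3 and 56.5 FPKM at D9, against 95.9, 136 and 124 FPKM at E105. Its log2 fold change of -1.005 ± 0.18 (SE) passed the 2-fold line narrowly, and the call ended at -0.96 without the first D9 library, -0.99 without the third D9 library, -0.90 without the second E105 library and -0.97 without the third E105 library. MRPS6, at -0.94, was called without the first or the third E105 library (-1.03 each) and without the second or the third D9 library (-1.07 and -1.04). With median-ratio scaling MRPL33 was at -0.41 and not called, the median of the members was 0.37, and MRPL37, MRPL58, MRPS25 and MRPL34 were called higher, where 5.05% of all genes were called higher and 6.29% in either direction. On that scale 19.6% of all genes were higher by adjusted p alone. On the deposited scale those 4 had log2 fold changes of 0.82, 0.70, 0.67 and 0.57, past the adjusted p. MRPL37 had 65.5, 47.7 and 51.3 FPKM at D9 and 32.2, 29.2 and 29.9 FPKM at E105, without overlap.

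**Figure D4:**
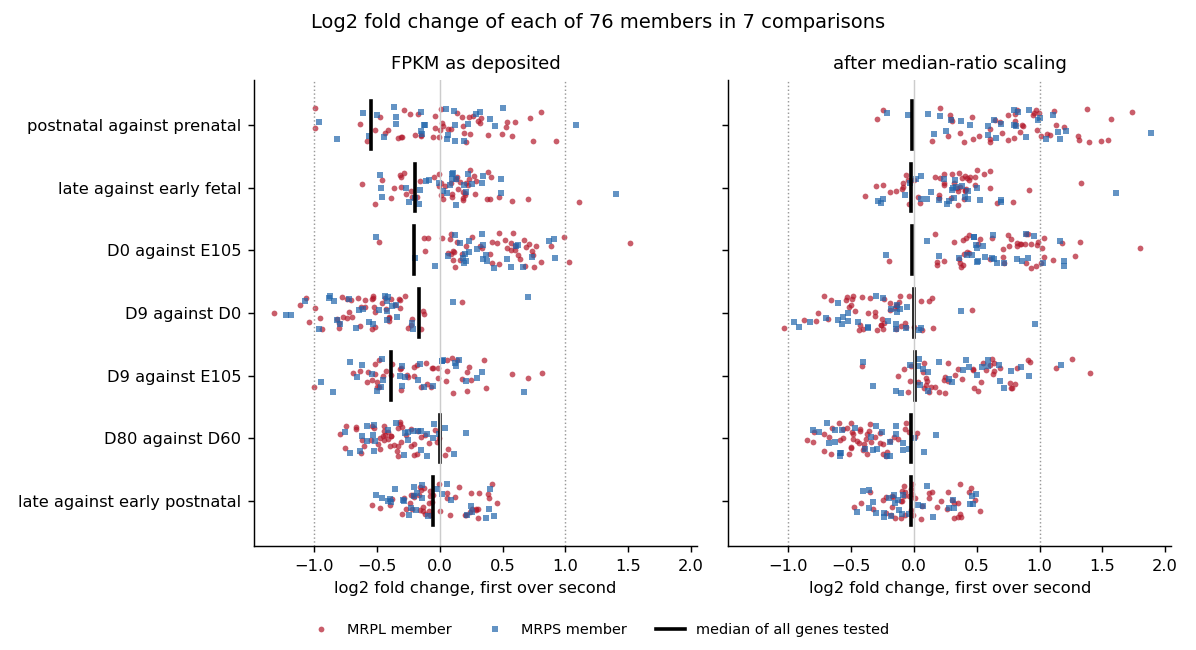
Log2 fold change of each of 76 members (points) in 7 comparisons, first group over second, on the deposited scale (left) and after median-ratio scaling (right). Black bars are the median of all genes tested and dotted lines mark a 2-fold change. For D0 against E105 all members but MRPS6 and MRPL14 lie to the right of the black bar on both scales, with a median of 0.39 on the deposited scale and 0.68 after median-ratio scaling, and mostly to its left for D9 against D0 and D80 against D60.

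Averaged over all stages after and before birth, the genes split into those higher and those lower after birth in the share they took of a library. Postnatal over prenatal, limma called 1 member higher and 0 lower, where 4.02% and 22.6% of all genes were called. By adjusted p alone 33 were higher and 31 lower, where 17.4% of all genes were higher and 76.4% lower. The median of the members was 0.02, and 68 of 76 lay above the median of all genes. After median-ratio scaling 21 members were called higher and 0 lower, where 10.7% and 6.34% of all genes were called, with a median of 0.80.

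The member called was MRPS36 (gene ID 100516116). It carries a small-subunit symbol, but its protein is now assigned to the 2-oxoglutarate dehydrogenase complex of the citric acid cycle. It ran from 37.1 to 99.2 FPKM in postnatal libraries, with a median of 57.7, and from 12 to 75.1 FPKM in prenatal libraries, with a median of 25.1. The ranges overlapped, and the log2 fold change was 1.09 ± 0.05 (SE, adjusted p = 3.3e-29). Its highest stage, D60 with 81.3 ± 22.2 FPKM, was 5.96 times its lowest, E33 with 13.6 ± 1.48 FPKM (SD, n = 3 each). No ribosomal member was called in this comparison on the deposited scale.

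MRPL51, a large-subunit protein particular to mitochondria, had a median of 88.8 FPKM in postnatal libraries (53.3 to 131) and 45.8 FPKM in prenatal libraries (32.4 to 85.6), with a log2 fold change of 0.92 ± 0.05 (SE). MRPL58, MRPL57, MRPL34 and MRPL42 followed with 0.80, 0.74, 0.72 and 0.60, and all 5 passed the adjusted p and were called with median-ratio scaling, at 1.40 to 1.74. At the lower end stood MRPL49, particular to mitochondria, with a median of 6.76 FPKM in postnatal libraries (4.18 to 15.8) and 14.8 FPKM in prenatal libraries (11.4 to 19.8). MRPL10, a stalk-base protein with a bacterial counterpart, had a median of 4.06 FPKM in postnatal libraries (2.45 to 13.4) and 9.62 FPKM in prenatal libraries (6.18 to 15.8). Both fell by just under a 2-fold change, at -0.997 ± 0.03 and -0.997 ± 0.04 (SE), followed by MRPS6 (-0.96), MRPS10 (-0.82), MRPL54 (-0.64) and MRPS31 (-0.62). Without the 3 libraries of D0 the first 3 were called, at -1.06 for MRPL49, -1.11 for MRPL10 and -1.003 for MRPS6. With median-ratio scaling MRPL49, MRPL10 and MRPS6 were the only members lower by adjusted p, at -0.25, -0.29 and -0.21, MRPS10 was at -0.04, and MRPL54 and MRPS31 were higher by adjusted p, at 0.14 and 0.16.

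Which members had a course over the stages unlike the rest depended on the scale. The correlation of each gene's 27 stage means with the median of the other members had a median of 0.52 on the deposited scale, against 0.17 for all other genes, and of 0.91 with median-ratio scaling, against -0.03. These are descriptions over stage means that share libraries and scaling. On the deposited scale the 3 members below 0 were MRPL53 at -0.30, MRPS25 at -0.15 and MRPL34 at -0.01, while MRPL49, MRPS6 and MRPL10 were at 0.35, 0.37 and 0.50. On the median-ratio scale MRPL15 followed the other members most closely, at 0.98, and the 3 members below 0 were MRPL49 at -0.52, MRPS6 at -0.41 and MRPL10 at -0.38. There MRPL53, MRPS25 and MRPL34 were at 0.73, 0.89 and 0.93.

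Within gestation few of the genes changed by 2-fold. Late (E95, E100 and E105) over early fetal stages (E33, E40 and E45), 2 members were called higher and 0 lower, where 6.07% and 9.32% of all genes were called, and 28 were higher and 20 lower by adjusted p alone, where 24.4% and 51% of all genes were. The median was 0.10 in the members and -0.19 over all genes, and 0.31 in the members after median-ratio scaling. MRPS36 had 48.5 ± 14.9 FPKM in late and 17.4 ± 3.80 FPKM in early fetal libraries (SD, n = 9 each), with a log2 fold change of 1.40 ± 0.11 (SE, adjusted p = 2.4e-18). MRPL33, of the large subunit, had 86.5 ± 27.2 FPKM in late and 38.8 ± 9.31 FPKM in early fetal libraries (SD, n = 9 each), with 1.11 ± 0.10 (SE, adjusted p = 5.8e-15). With median-ratio scaling MRPS36 and MRPL33 were again the 2 members called, where 7.12% of all genes were called higher and 5.58% lower. MRPL24, MRPL51, MRPS33 and MRPS18B came next at 0.70, 0.57, 0.49 and 0.48, and MRPL52 was lowest at -0.62, with 13.4 ± 1.57 FPKM in late and 21.1 ± 2.69 FPKM in early fetal libraries (SD, n = 9 each). MRPL11, MRPS6, MRPS10, MRPS30 and MRPL10 lay between -0.52 and -0.46 and passed the adjusted p. After median-ratio scaling these 6 lay between -0.39 and -0.24, and all but MRPS6 passed it.

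Over the same stages 28 of 66 respiratory genes were called higher, with a median of 0.94. Of the biogenesis genes, 3 coactivator and receptor genes were called higher: ESRRA (1.75), PPARGC1A (1.69) and PPARGC1B (1.39). None of the translation or assembly factors was called. All 7 muscle markers were called higher, with a median of 2.22, and 4 of 5 endothelial markers. Called lower were 3 of 5 cartilage and bone markers and 3 of 4 tendon markers. Mean sums of the adipocyte markers were 0.093, 1.17 and 3.12 FPKM at E33, E40 and E45. They were 122, 109 and 150 FPKM at E95, E100 and E105. Over the same stages, in order, leukocyte markers summed to 14.8, 18.9 and 19.99 FPKM early and 47.5, 49.7 and 50.99 FPKM late. Erythroid markers summed to 1026, 3844 and 4944 FPKM early and 1933, 1589 and 2898 FPKM late, which overlapped. The part of these cell types was not tested.

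Single steps between neighbouring stages gave 11 calls among the members over 26 steps, 9 of them at the 2 steps that share D0. These 2 steps also had the most calls over all genes. In either direction, 12.2% of all genes were called at D0 against E105 and 10.4% at D9 against D0. The next highest share was 3.79%, at D80 against D60. The other 2 calls among the members were both MRPL57, a large-subunit protein particular to mitochondria. It had 52.3, 48.3 and 46.4 FPKM at E85, against 23, 21 and 22.8 FPKM at E80 (log2 fold change 1.10 ± 0.18 (SE), adjusted p = 4.2e-05), where 0.155% of all genes were called higher. At E90 it had 21.4, 13.9 and 21.9 FPKM (log2 fold change from E85 of -1.34 ± 0.18 (SE), adjusted p = 4.9e-07), where 0.45% of all genes were called lower. All 3 libraries of E85 stood above all of its neighbours on both sides. Without the fold criterion, 17 members were lower at E90 than at E85 (5.1% of all genes), 11 higher at E105 than at E100 (2.39%), 18 lower at D30 than at D20 (12.8%) and 17 higher at D100 than at D80 (12%).

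Later in postnatal life the summed level was lowest at D80. The step from D60 to D80 was chosen because, after D9, it had the most calls over all genes among neighbouring postnatal stages. That was known from earlier results of these data. At D80 against D60 0 members were called, where 2.21% of all genes were called higher and 1.58% lower. Counted by adjusted p alone, 35 were lower and 0 higher, where 11.8% and 13.2% of all genes were. At an unadjusted p under 0.05 limma had 45 lower and 0 higher, where 17.3% of all genes were lower and 18.6% higher. The count by adjusted p was 23 without the second D60 library and 5 when only the 6 libraries of these stages were fitted. The median was -0.34 in the members and 0.00 over all genes. Summed levels were 1298, 1351 and 1455 FPKM in D80 libraries and 1570, 1972 and 1805 FPKM in D60 libraries, without overlap. The largest drops were in MRPL55 (-0.80), MRPS15 (-0.76), MRPL45 (-0.76), which lies near the membrane side of the ribosome, MRPL12 (-0.75), MRPS36 (-0.71) and MRPL16 (-0.67). MRPS15 had 16.7, 17.5 and 16.9 FPKM at D80 and 28.7, 33.7 and 26.5 FPKM at D60. Respiratory genes were lower as well, 3 of 66 called and 44 by adjusted p alone, with a median of -0.56. The 6 leukocyte markers summed to 414, 138 and 87.4 FPKM at D80 and 104.9, 63.2 and 69.2 FPKM at D60, with 4 called higher. The 4 erythroid markers summed to 156, 107 and 100.3 FPKM at D80 and 1045, 497 and 910 FPKM at D60, with 3 called lower. The 5 endothelial markers summed to 54.6, 44.98 and 61.0 FPKM at D80 and 115, 74.0 and 72.3 FPKM at D60, with 1 called lower. The 7 muscle markers summed to 42005, 56621 and 38005 FPKM at D80 and 66289, 63805 and 51937 FPKM at D60, with none called. The D80 and D60 sums overlapped for the leukocyte and muscle markers, and did not for the erythroid and endothelial markers. The part of these cell types was not tested. Without the D80 library that had 414 FPKM, 30 members were lower by adjusted p alone.

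Late (D140, D160 and D180) over early postnatal stages (D20, D30 and D40), 0 members were called, where 0.788% of all genes were called higher and 1.49% lower. At an unadjusted p under 0.05 limma had 20 higher and 27 lower, where 20.7% of all genes were higher and 31% lower. Counted by adjusted p alone, 20 were higher and 24 lower, where 18.2% and 27.0% of all genes were, and the medians were -0.09 in the members and -0.05 over all genes. The highest values were 0.46 for MRPL34, 0.43 for MRPS26, 0.42 for MRPL14 and 0.40 for MRPS9 and MRPS18C, all past the adjusted p, and the sixth was MRPL53 at 0.39, which missed it (adjusted p = 0.12). The lowest were MRPL12 (-0.54), with 47.4 ± 3.87 FPKM in late and 69.7 ± 10.1 FPKM in early postnatal libraries (SD, n = 9 each), MRPS18B (-0.51), MRPL39 (-0.47), MRPS18A (-0.46), MRPS17 (-0.41) and MRPL38 (-0.40). Respiratory genes had a median of -0.52 over the same stages, 5 called lower and none higher.

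Set against the respiratory complexes that the mitoribosome helps to build, the members were lower on average after birth than before it. The ratio of their summed FPKM to that of 66 nuclear respiratory genes, which no scaling changes, was 0.112 ± 0.0227 in postnatal libraries (SD, n = 36) and 0.205 ± 0.0414 in prenatal libraries (SD, n = 45). It was 0.263 ± 0.0061 at E33, 0.118 ± 0.0065 at E105, 0.136 ± 0.0104 at D0, 0.0907 ± 0.0008 at D9 and 0.137 ± 0.0148 at D180 (SD, n = 3 each), so that the means at D0 and D180 lay above E105, as did D120 to D160, at 0.124 to 0.141. As a share of all FPKM the members made up 0.451% on average after birth and 0.423% before it. Against 80 cytosolic ribosomal protein genes the ratio was higher after birth, at 0.0316 ± 0.0052 in postnatal libraries (SD, n = 36) and 0.0186 ± 0.0022 in prenatal libraries (SD, n = 45), and it was highest at D9, with 0.0406 ± 0.0025 (SD, n = 3). Postnatal over prenatal, 16 respiratory genes were called higher and 1 lower, with a median of 0.76, and 15 cytosolic ribosomal protein genes lower and 1 higher, with a median of -0.73. The small-subunit sum was 0.398 ± 0.0145 of the large-subunit sum in postnatal libraries (SD, n = 36) and 0.433 ± 0.0212 in prenatal libraries (SD, n = 45). Without MRPS36 the same ratio was 0.348 ± 0.0169 after and 0.407 ± 0.0226 before birth. None of these ratios was tested.

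Of the other lists in the same comparison, 1 of 16 translation factors was called higher, TSFM, with 11.7 ± 9.52 FPKM in postnatal libraries (SD, n = 36) and 2.90 ± 5.99 FPKM in prenatal libraries (SD, n = 45). Of 25 assembly factors RBFA and MTG2 were called lower, at -1.05 and -1.07, and both were uncalled at -0.33 and -0.41 with median-ratio scaling. In the biogenesis list ESRRA was called higher (1.33) and the transcription factor NRF1 lower (-1.04, and -0.47 with median-ratio scaling). Of 7 muscle markers 6 were called higher, of 5 adipocyte markers tested 5, and of 6 leukocyte markers 2. Lower were 3 of 4 erythroid, 1 of 5 endothelial, 3 of 5 cartilage and bone and 4 of 4 tendon markers. The part of these cell types was not tested.

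The 3 MRPS18 genes are paralogs that occupy different places in the particle. MRPS18C sits where the bacterial protein does, MRPS18B elsewhere on the small subunit, and MRPS18A in the large subunit in spite of its symbol, as does MRPS30. Of 6 comparisons of their ratios, which are free of scaling, 4 passed the test. It treated the libraries of a group as independent of each other, although each group held 3 stages. The ratios are not independent either, as each follows from the others. Late over early fetal stages, the log2 ratio of MRPS18B to MRPS18A was 1.23 ± 0.17 in late and 0.83 ± 0.18 in early libraries, and that of MRPS18B to MRPS18C 1.01 ± 0.24 in late and 0.74 ± 0.19 in early libraries (SD, n = 9 each). Both differences passed an exact two-sided permutation test, with adjusted p = 0.00074 and adjusted p = 0.031 over 6 such tests. After birth the pattern was another. MRPS18B to MRPS18C was 0.11 ± 0.40 in late and 1.06 ± 0.49 in early postnatal libraries, and MRPS18C to MRPS18A 0.71 ± 0.47 in late and -0.20 ± 0.51 in early postnatal libraries (SD, n = 9 each; exact permutation test, adjusted p = 0.00074 and adjusted p = 0.0034). MRPS18B to MRPS18A, at 0.82 ± 0.23 in late and 0.86 ± 0.17 in early postnatal libraries, missed the threshold (exact permutation test, adjusted p = 0.68), as did MRPS18C to MRPS18A before birth (exact permutation test, adjusted p = 0.32). In FPKM, MRPS18C had 19.99 ± 5.28 in late and 14.8 ± 3.23 in early postnatal libraries, while MRPS18B had 21.1 ± 3.24 in late and 30.7 ± 5.84 in early ones (SD, n = 9 each).

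**Figure D5:**
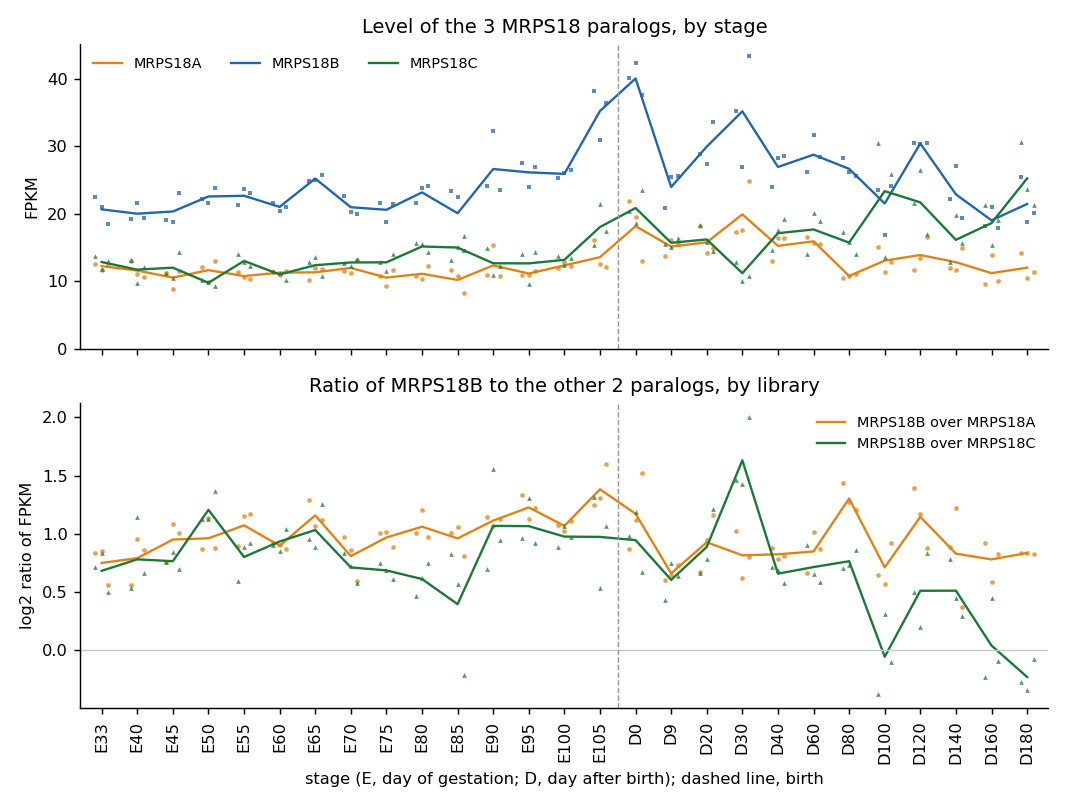
Top, FPKM of the 3 MRPS18 paralogs in each library (points) with the mean of each stage (line). Bottom, log2 ratio of MRPS18B to each of the other paralogs. The ratio to MRPS18C averages 0.11 in late postnatal libraries (D140 to D180), against 1.06 in early ones (D20 to D40), and the ratio to MRPS18A averages 0.82 in late and 0.86 in early ones.

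Some members share sequence with a neighbour, and whether counting used the strand is not given in the sources used here. In the RefSeq annotation of Sscrofa11.1, 20 members had exons that overlap another gene, 17 of them on the opposite strand and 4 on the same strand, MRPL53 having both. Their values are less certain than those of the others. Of the members named above, MRPL49 overlaps FAU, a cytosolic ribosomal protein gene with 304 ± 62.1 FPKM in postnatal libraries (SD, n = 36) and 404 ± 60.2 FPKM in prenatal libraries (SD, n = 45). MRPS6 overlaps SLC5A3 on the same strand, with 3.43 ± 0.987 FPKM in postnatal and 12.5 ± 5.49 FPKM in prenatal libraries, and MRPS6 itself had 6.86 ± 2.18 FPKM in postnatal and 13.99 ± 2.87 FPKM in prenatal libraries. MRPL53 overlaps CCDC142, with 6.09 ± 1.33 FPKM in postnatal and 9.54 ± 1.24 FPKM in prenatal libraries. MRPL57 overlaps SKA3 (1.46 FPKM at E85), MRPS18C overlaps ABRAXAS1 (1.34 ± 0.483 FPKM in postnatal and 3.52 ± 1.01 FPKM in prenatal libraries) and HELQ, and MRPL1, MRPL17, MRPS7, MRPS15, MRPS25, MRPS27 and MRPS30 also overlap genes on the opposite strand, as MRPS26 does one on the same strand. The part of shared reads was not tested.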

How the data were processed

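Libraries were strand-specific and paired-end, made from total RNA depleted of ribosomal RNA, per the labels' protocols. The authors deposited 1 table of FPKM per gene for all 81 libraries; HISAT2 2.0.4, StringTie 1.3.1 and Trimmomatic are named in the submitters' processing notes, and the genome build is not given in the sources used here. The table's 28325 lines held 264 repeated gene IDs, which were dropped. FPKM values are not counts, and total depth is unknown.

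From these values log2(FPKM + 1) was fitted with limma 3.58.1 (R 4.3.3), with a mean for each of the 27 stages, all 81 libraries (54 residual degrees of freedom), a variance trend and two-sided moderated tests. P-values were adjusted by Benjamini-Hochberg over the 14220 genes that reached 1 FPKM in 3 or more libraries. A call needs an adjusted p under 0.05 and a log2 fold change of 1 or more in size. The pseudocount of 1 makes fold changes of low genes look smaller than they are. The fit was tested on simulated data with known changes between postnatal and prenatal stages. Stage groups were means of stage means. Ratios of the MRPS18 genes were compared by exact permutation tests over libraries (scipy 1.17.1). Named members were the 6 highest and 6 lowest fold changes of a comparison, all called members, the 5 most and 5 least abundant, the MRPS18 genes and MRPS36. The members, the gene lists and the step from D60 to D80 were chosen with earlier results of these data known. In the assembly list NOA1 was not matched, nor were MB and HBA1 in the marker lists, so values cover the genes found. Alternatives were another pseudocount, filter and normalisation, a fit without the trend, a replicate block, the compared stages alone, D0 left out and each library left out. No general pairing of libraries by replicate number was seen. Deviations of libraries with the same number at different stages had a median correlation of -0.0004, against -0.0017 for different numbers. Correlations over 0.1 were found in 22.8% of same-number pairs and 20.7% of the others. Such medians cannot exclude a pairing among a few stages.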

Additional observations from a re-analysis of the deposited data

How the results depend on the processing

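Scaling mattered most, and the cause of each change named here was not tested. With median-ratio scaling, members called came to 21 (postnatal against prenatal), 13 (D0 against E105), 1 (D9 against D0) and 4 (D9 against E105), with median log2 fold changes of 0.80, 0.68, -0.26 and 0.37, the last reversed, and 0.31 for late against early fetal stages. By adjusted p alone, a count chosen after seeing the data, 72 were higher and 3 lower after birth (43.9% and 45.5% of all genes), 63 higher at D0 (25.4%) and 32 lower at D9 (22.4%). Sums were 1053 at E33, 1704 at E105, 2199 at D9, 2424 at D180, 2322 after and 1235 before birth. Single members reversed, to 0.14 for MRPL54 and 0.16 for MRPS31 after birth, to 0.10 for MRPS26, 0.18 for MRPL12, 0.17 for MRPL49 and 0.18 for MRPL23 at D0 against E105, to 0.12 for MRPL14, 0.14 for MRPL34, 0.15 for MRPL52 and 0.055 for MRPS18A at D9 against D0, and to 0.040 for MRPS18B, 0.39 for MRPS18C and 0.43 for MRPS36 at D9 against E105.

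With quantile normalisation the calls were 10, 1, 0 and 2 in the same 4 comparisons and 3 between neighbouring stages, with medians of 0.54 after birth, 0.29 in late fetal stages, -0.23 at D9 against D0 and a reversed 0.19 at D9 against E105. By adjusted p alone 65 were higher and 8 lower after birth and 33 lower at D9 against D0, and 34 had their highest stage at D0. Reversed were MRPL49 (0.035) and MRPL23 (0.092) at D0, MRPL14 (0.12), MRPL34 (0.17), MRPL52 (0.18) and MRPS18A (0.097) at D9 against D0, MRPS18C (0.21) and MRPS36 (0.055) at D9 against E105, and MRPL30 (0.055) and MRPL50 (-0.0065) at D80 against D60. Scaling to equal sums gave 3 calls after birth and 6 at D0, medians of 0.51 at D0 and a reversed 0.0038 at D9 against E105, and reversed MRPL12 (0.00039) and MRPL23 (0.019) at D0, MRPS18C (0.023) and MRPS36 (0.055) at D9 against E105, and MRPL30 (0.11) and MRPS18B (0.012) at D80 against D60. A pseudocount of 0.1 gave 4 calls after birth, 11 at D9 against D0 and 2 at D9 against E105. The 6 libraries of D80 and D60 fitted alone gave 5 members lower by adjusted p, and leaving out D0 gave 4 calls after birth. The share of all genes called was not worked out under the settings of this paragraph. Its counts of calls and of members past the adjusted p therefore cannot be set against all genes.

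Counting MRPS18A and MRPS30 with the large subunit put the small to large ratio at 0.433 (E33), 0.405 (E105), 0.381 (D0), 0.387 (D9), 0.384 (D180) and 0.3803 (all postnatal). Adding 6 further mitoribosomal genes gave sums of 2104 (E105) and 1803 (D9), ratios to respiratory genes of 0.277 (E33) and 0.0953 (D9), and to cytosolic ribosomal protein genes of 0.0198 (E33) and 0.0238 (E105). No filter, a stricter filter and a fit without the variance trend changed no call reported here.

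Leaving out 1 library at a time gave 1 to 3 calls after birth, as MRPL49 and MRPL10 crossed the 2-fold line, with 3 calls without E50 replicate 2, E65 replicate 1, E75 replicate 2, E85 replicate 3, D120 replicate 3 or D180 replicate 2. It gave 2 calls without E33, E40, E55, E80, D30 or D100 replicate 3, without E105, D0 or D160 replicate 2, or without E90, E95, D0, D9, D20, D60, D80, D100, D140, D160 or D180 replicate 1. It gave 1 to 4 at D0 against E105, and 0 to 2 at D9 against E105, with 0 without E105 replicate 2 or D9 replicate 1 and 2 without E105 replicate 1 or D9 replicate 2. It gave 23 to 36 lower by adjusted p alone at D80 against D60. Reversed were MRPL12 (-0.32 to 0.029) and MRPL49 (-0.30 to 0.017) at D0, MRPS17 (-0.060 to 0.28) and MRPL34 (-0.39 to 0.024) at D9 against D0, MRPS16 (-0.054 to 0.12), MRPL50 (-0.12 to 0.14), MRPL30 (-0.17 to 0.11) and MRPL52 (-0.070 to 0.16) at D80 against D60, and the late postnatal ratio of MRPS18B to MRPS18A (-0.092 to 0.014).

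With the replicate number as a block, the counts of calls were as without it, 43 members instead of 41 were higher at D0 against E105 and 36 instead of 35 lower at D80 against D60 by adjusted p alone, and the block changed no call. Of the 81 libraries, 28 lay nearest to their own number. Without read counts no counting interval can be given for any FPKM.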
